A study of Sus scrofa with 4 samples.

Results

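The circRNAs examined here were those that close over a long stretch of the pig genome. A circRNA was included when the 2 ends of its back-splice junction lay at least 20000 bases apart and an annotated protein-coding or lncRNA gene on the same strand, other than ZEB1, contained both ends. That gene is called its host. Of 8623 circRNAs in all, 1967 spanned at least 20000 bases. No host was found for 93 of these and 11 lay on ZEB1, which left 1863 long-span circRNAs on 955 hosts. The choice used positions alone and no expression value. The cells were subcutaneous preadipocytes of male, 5-day-old Chinese Erhualian piglets, differentiated in culture. The 4 groups were D0 (confluent cells before induction), D2 (after 2 days with dexamethasone, IBMX and insulin), D4 (after 2 further days with insulin alone) and D8 (after 4 further days in growth medium). Total RNA of 3 piglets was pooled in equal amounts into 1 library for each stage. Stage and library therefore cannot be told apart, the spread between piglets was not measured, and no test between stages was possible.

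A circRNA arises when the splicing machinery joins the end of a downstream exon back to the start of an upstream exon of the same transcript. The closed ring has no free ends, so that exonucleases degrade it slowly and it tends to outlast the linear mRNA. The genomic span of a circRNA is the distance between the back-spliced ends and includes the introns that are normally removed. A long span therefore reflects long introns or many exons between the ends and is not the length of the RNA molecule. Many rings may share one end, since a given exon can be joined to several partners.

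Levels of circRNAs are given as SRPBM, the reads across the back-splice junction per 1000000000 mapped reads. A single junction read was worth 5.94 SRPBM (D4) to 8.40 SRPBM (D8). Every deposited value corresponded to a whole number of junction reads within 0.01 reads, and the smallest listed number was 2 reads, the minimum set by the authors. The libraries held 37480 to 53207 junction reads. A value of 0 means that a ring was below detection at the given depth, and any fold against a 0 was computed against 3 reads in that library and is a lower bound. The 95% intervals of ratios are exact binomial intervals on the junction reads. They and the Wilson intervals of shares cover counting error only. Levels of mRNAs are FPKM. The libraries were made from rRNA-depleted total RNA, so reads from the exons of a ring can also count in the FPKM of its host. The level called host mRNA is therefore not a linear-only level and is not fully independent of the ring. The size of this part was not measured. The summed FPKM of 8 adipocyte markers (among them ADIPOQ, PLIN1 and FABP4) was 122, 491, 1747 and 2076 at D0, D2, D4 and D8. Over 4 smooth muscle and pericyte markers, of which 2 reached FPKM 1 in every library, the sum was 3002, 329, 228 and 2787 in the same order. Over 4 endothelial markers it stayed between 1.14 and 2.63, over 3 leukocyte markers between 3.00 and 7.76 and over 3 epithelial markers between 5.13 and 26.1. It was 436, 37.7, 4.05 and 35.7 over 2 skeletal muscle markers, of which 1 reached FPKM 1 in every library, and 2626, 3893, 3621 and 3155 over 7 preadipocyte and stromal markers. The part of these cell states in the results below was not tested, and in pooled bulk RNA fewer cells of a type and less RNA per cell cannot be told apart.

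Long-span circRNAs took a larger share of all junction reads after induction. They held 9083 of the junction reads at D0, or 17.1% (95% Wilson interval 16.8 to 17.4). The share then reached 19.3% (18.9 to 19.7) at D2, 22.3% (22.0 to 22.7) at D4 and 21.2% (20.8 to 21.6) in the D8 library. The intervals of D2, D4 and D8 all lay above that of D0. The 3148 circRNAs under 5 kb held 42.0%, 39.8%, 36.7% and 39.2% in the order of the stages, and the 3508 circRNAs between 5 and 20 kb held 40.2%, 39.8%, 39.8% and 38.7%. A single locus contributed to the difference. Without the circRNAs of LOC110256043, described below, the shares of long-span circRNAs at D2, D4 and D8 were 18.8%, 20.9% and 19.5%, which were still above the interval of D0. Per mapped read, the summed level of long-span circRNAs was 58286, 61656, 67649 and 66803 SRPBM in the order of the stages.

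**Figure D1:**
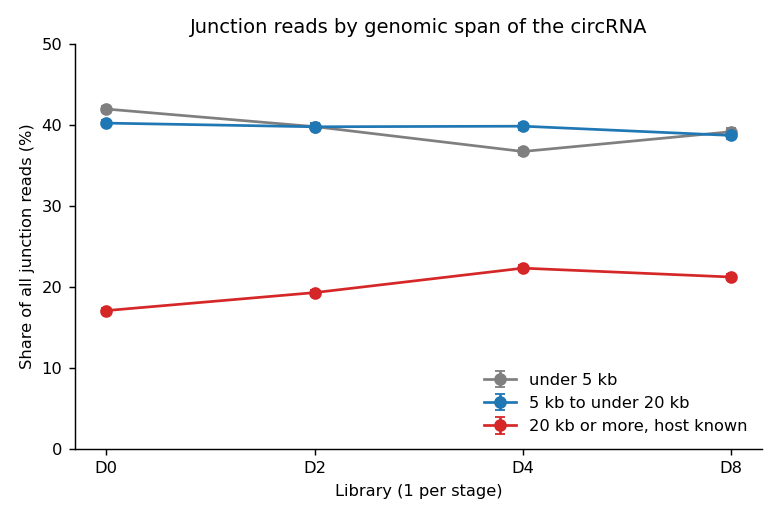
Share of all junction reads (y axis, percent) held by circRNAs of 3 classes of genomic span in the libraries D0, D2, D4 and D8 (x axis), with 95% Wilson intervals that cover counting error only. The class of 20 kb or more with a known host went from 17.1% at D0 to 22.3% at D4, and the class under 5 kb from 42.0% to 36.7%.

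Most long-span circRNAs were rare. A median of 7 junction reads over the 4 libraries was found, beside 8 for all circRNAs, and 1110 of the 1863 had fewer than 10. Only 198 (10.6%) were listed in all 4 libraries and 1111 (59.6%) in a single one, beside 13.0% and 56.3% of all circRNAs. At least 100 reads were reached by 47 of them. The 12 with the most reads together held 17.5%, 19.8%, 21.7% and 23.6% of the long-span reads of the 4 libraries.

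The hosts were long genes of moderate expression. The median span was 32916 bases, 417 circRNAs spanned at least 50 kb, 91 at least 100 kb, and the longest, on PSD3, 191776 bases with 5 junction reads. The median host of a long-span circRNA was 159493 bases long, compared with 92370 bases for circRNAs between 5 and 20 kb and 67752 bases for those under 5 kb, and the ring covered a median of 23.3% of it. A host had to contain both ends and so had to be at least 20000 bases long. The longer hosts are therefore in part a result of the rule. The median over circRNAs of the mean host FPKM was 7.04, 8.98 and 8.64 in these 3 classes. An upstream end within the first 25% of the host was found for 35.6% of long-span circRNAs (33.4 to 37.8), for 22.7% of the middle class and for 16.9% of the short class. A ring that covers more of its host must also reach closer to its ends, so that span and position are not independent. Hosts were protein-coding for 1835 circRNAs and lncRNAs for 28. Chromosome 1 carried 233 of them, chromosome 13 carried 174 and chromosome 6 carried 131.

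Long-span circRNAs shared their ends with other circRNAs more often than shorter ones. In 78.4% of them (76.4 to 80.2) at least 1 end was also an end of another circRNA, beside 60.9% in the middle class and 41.3% in the short class. Hosts carried 1.95 long-span circRNAs on average, beside 1.75 of the middle class and 1.42 of the short class. The 2 ends did not contribute equally. The upstream end, which is the start of the first exon in the ring, was shared by 59.1% (56.8 to 61.3) and the downstream end by 46.2% (44.0 to 48.5). In the middle class these shares were 39.3% and 35.6%, and in the short class 24.1% and 23.4%. Among the 207 hosts with 3 or more long-span circRNAs, all of them used a single upstream end in 27 hosts and a single downstream end in 5. Rings of 1 host share that host and are not independent, and the intervals treat them as if they were.

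TLK1, a kinase that acts in chromatin assembly, used a single upstream end. All 8 of its long-span circRNAs began at the same upstream end, 46.1 kb from the 5′ end of the gene, and closed on 8 different downstream ends between 32433 and 100510 bases away. Together they held 98.4% of the junction reads found on TLK1. MKLN1, which encodes the adaptor muskelin, had 11 long-span circRNAs on 3 upstream and 8 downstream ends. MLLT10, a cofactor of the histone methyltransferase DOT1L, had 15 on 4 upstream and 9 downstream ends. SMARCC1, a core subunit of BAF chromatin remodelling complexes, carried the most of any host, 17 on 7 upstream and 10 downstream ends. In contrast, OSBPL1A, an oxysterol-binding protein family member, had 12 rings on 5 upstream and 6 downstream ends, and RPS6KC1, a ribosomal protein S6 kinase relative, had 11 on 6 of each. A total of 550 hosts carried only 1 long-span circRNA.

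**Figure D2:**
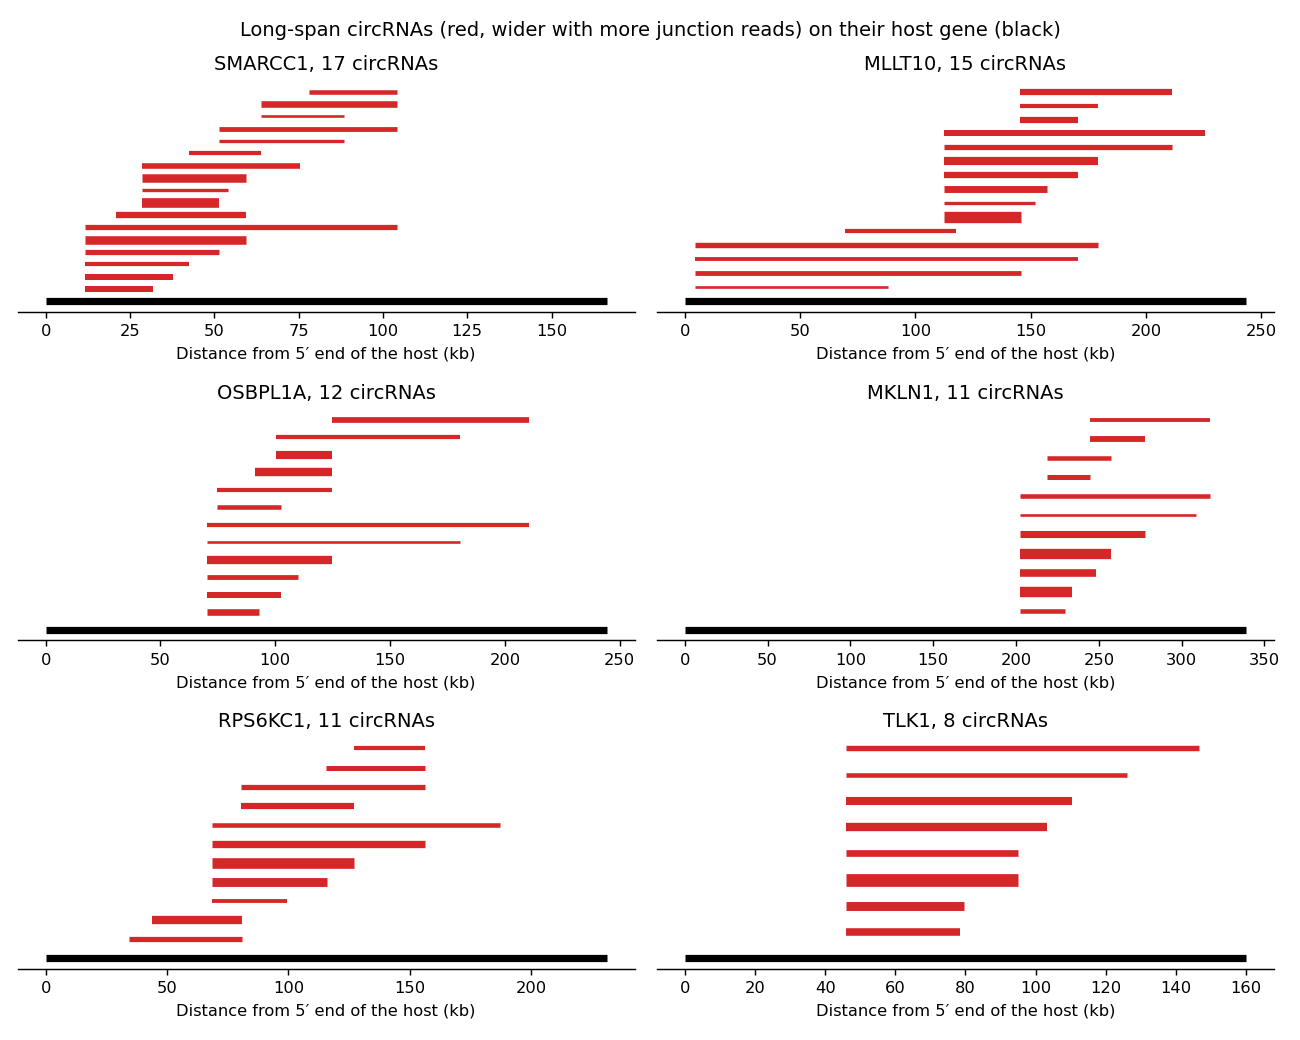
Positions of long-span circRNAs (red lines, 1 per circRNA, wider with more junction reads summed over the 4 libraries on a log scale) along the 5 hosts with the most of them and TLK1 (black line, whole gene), in kb from the 5′ end of the host. The 8 circRNAs of TLK1 start at one position, 46.1 kb, and those of MLLT10 stack on 4 upstream ends.

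The most abundant long-span circRNA was made from LOC110256043, a protein-coding gene without an assigned name (chromosome 12 of Sscrofa11.1, 39364414 to 39433654, minus strand). Its ring spans 39366927 to 39391822, which is 24.9 kb or 36.0% of the gene. It was measured at 141, 1991, 5385 and 6595 SRPBM at D0, D2, D4 and D8, from 22, 274, 907 and 785 junction reads. It was lowest at D0 and higher in each later library. The ratio of D2 to D0 was 14.1 (9.13 to 22.9), that of D4 to D2 was 2.70 (2.36 to 3.11), and that of D8 to D4 was 1.22 (1.11 to 1.35). The host mRNA took the same order, with FPKM of 2.06, 21.7, 41.3 and 57.4. This single ring held 0.242% of the long-span reads at D0 and 9.87% at D8. A second long-span circRNA of the gene was listed only at D4 and D8, with 7 and 6 reads.

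The ring of ENAH, which encodes an actin regulator of the Ena/VASP family, was second (chromosome 10, 13491755 to 13527498, 35.7 kb). Its levels were 2233, 2383, 1633 and 1588 SRPBM at D0, D2, D4 and D8. The level at D2 was within counting error of D0 (ratio 1.07, 0.915 to 1.24) and the level at D8 was lower (0.711, 0.592 to 0.851). The host mRNA was already lower at D2, with FPKM of 69.2, 33.6, 33.9 and 25.6, so that the ratio of D8 to D0 was 0.371 for the mRNA. ENAH carried 7 long-span circRNAs with 1366 junction reads, and this ring held 83.5% of them. Another of its rings, 68.2 kb long, had 10, 22, 15 and 9 reads, and its ratio of D2 to D0 was 2.49 (1.13 to 5.89) while the host was at 0.486.

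The main ring of TLK1 (chromosome 15, 77234646 to 77283482) was measured at 1425, 1090, 1092 and 1134 SRPBM. It was highest at D0, and the ratio of D8 to D0 was 0.796 (0.638 to 0.990). The host had FPKM of 8.42, 5.36, 5.62 and 6.72, with the same ratio of D8 to D0, 0.798. Other rings from the same upstream end did not follow this order. One had 34, 21, 12 and 11 reads, and another had 16, 0, 20 and 19. From D2 to D4 the first was 0.467 times as high (0.209 to 0.994) and the second at least 5.45 times as high.

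MSRB3, a methionine sulfoxide reductase, gave 2 abundant rings from 1 upstream end (chromosome 5). The longer, of 59.0 kb, was measured at 1027, 799, 671 and 874 SRPBM, and the shorter, of 21.0 kb, at 552, 480, 368 and 546. Both were lowest at D4. The host mRNA was lower at D2 and D4 than at D0 and D8, with FPKM of 81.5, 36.1, 40.5 and 87.9. From D0 to D4 the ratio was 0.653 (0.509 to 0.837) for the longer ring, 0.667 (0.473 to 0.935) for the shorter and 0.497 for the host. The smooth muscle and pericyte markers took the same course as this host, low at D2 and D4 and high at D0 and D8.

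Several abundant rings stayed within a narrow range. ZMYND11, a reader of methylated histone H3, gave a ring at 744, 814, 801 and 664 SRPBM, and none of its 5 ratios had an interval without 1. SMAD4, the common mediator of TGF-beta and BMP signals, gave 571, 429, 528 and 479 SRPBM, and ELF2, an ETS family transcription factor, gave 853, 690, 594 and 773. For SMAD4 no interval left out 1, and for ELF2 only that of D4 to D0 did (0.696, 0.531 to 0.908). The ring of ARHGAP12, a GTPase-activating protein, was at 937, 1351, 1110 and 1117 SRPBM. It was higher at D2 than at D0 (1.44, 1.16 to 1.80), as was its mRNA (1.83-fold). TTC3, a ubiquitin ligase, also had its highest level at D2, with 513, 879, 623 and 546 SRPBM and a ratio of D2 to D0 of 1.71 (1.28 to 2.30).

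PSD3, an exchange factor for the GTPase ARF6, gave a ring at 578, 472, 1009 and 815 SRPBM, and the level at D4 was 2.14 times that at D2 (1.60 to 2.89). Its mRNA was already higher at D2 (5.63 FPKM, beside 2.81 at D0), and from D4 to D8 its ratio was 0.457 and that of the ring 0.807 (0.623 to 1.04). APBB2, an adaptor of the amyloid precursor protein, had its ring highest at D2 (699, 879, 576 and 655 SRPBM) and its mRNA highest at D4 (5.83, 6.86, 9.32 and 4.41 FPKM). MLLT10 had an mRNA between 4.53 and 4.83 FPKM in all 4 libraries, whereas its main ring was at 468, 450, 653 and 538 SRPBM and was 1.45 times as high at D4 as at D2 (1.05 to 2.01).

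**Figure D3:**
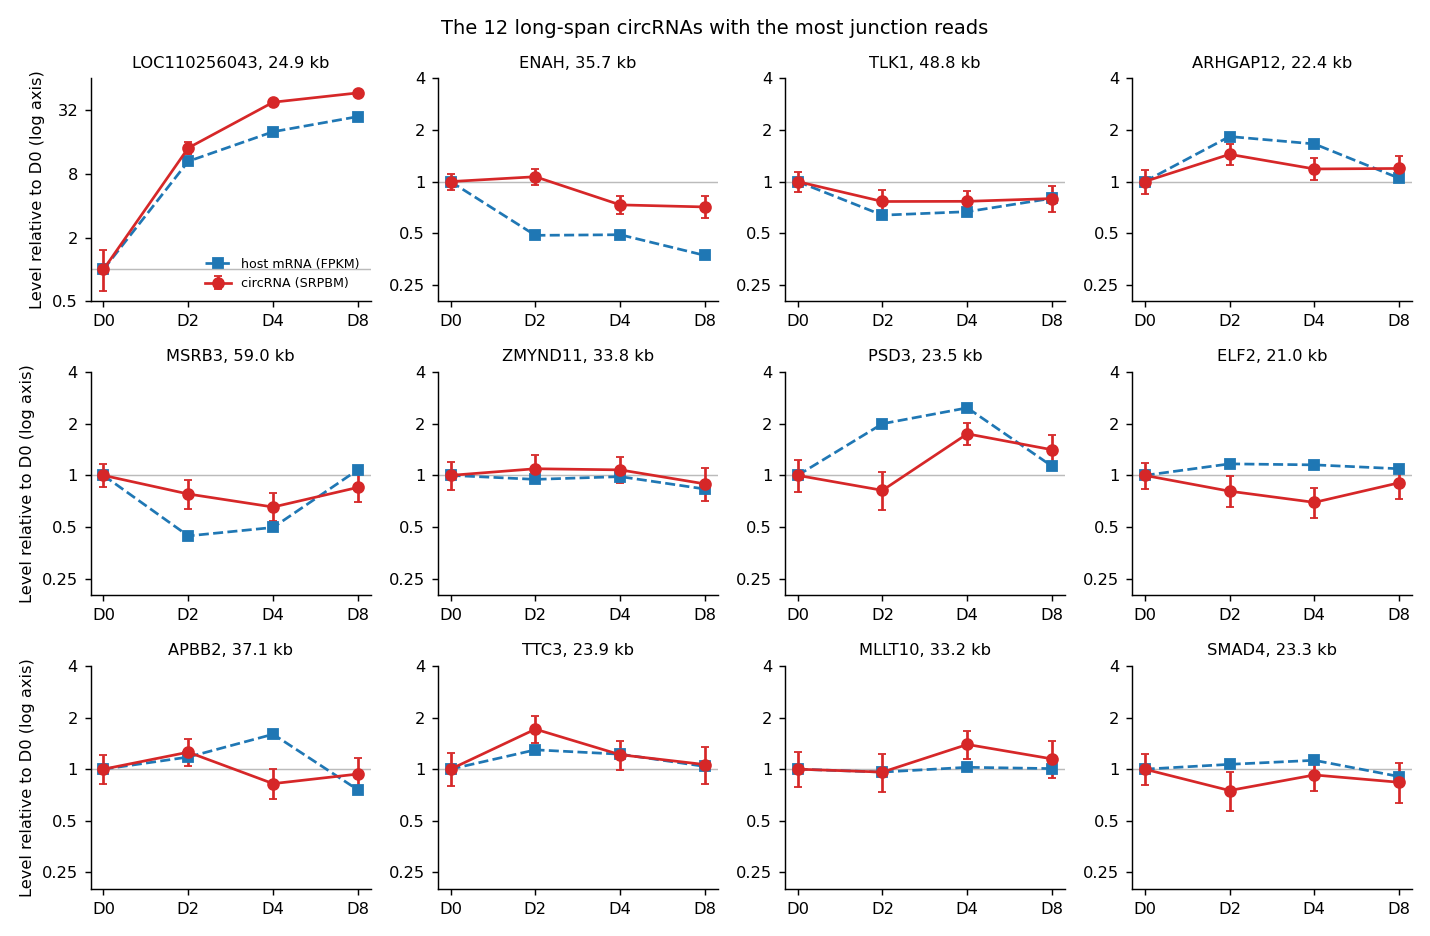
Levels of the 12 long-span circRNAs with the most junction reads (red circles, SRPBM with 95% Poisson counting intervals) and of their host mRNAs (blue squares, FPKM), each divided by its own D0 value, on a log axis, at D0, D2, D4 and D8. The circRNA and mRNA of LOC110256043 were both far above D0 (46.7-fold and 27.8-fold at D8, on a wider axis), and the ENAH mRNA lay below its circRNA at D2, D4 and D8.

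Between 2 libraries, a circRNA was counted as higher or lower when its SRPBM differed at least 2-fold, among those with at least 20 junction reads in the 2 libraries together. At D2 compared with D0, 35 of 199 long-span circRNAs were higher (17.6%) and 36 were lower (18.1%). Over all circRNAs, 18.1% were higher and 22.7% were lower. With the added condition that the counting interval leave out 1, the long-span numbers were 33 and 28 (by the same rule, 15.9% and 18.4% of all circRNAs), and the median log2 ratio was -0.10, beside -0.09 for all circRNAs. These shares were near those of all circRNAs. Of the higher ones 5 rested on a 0 in one library, and of the lower ones 8. The largest rises and falls named below were taken among long-span circRNAs with at least 50 junction reads in the 2 libraries together, which were 43 to 57 circRNAs in a comparison. Rings with fewer reads, such as that of LTBP1, can have larger ratios.

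Among rings with at least 50 reads, the largest rises at D2 were seen in LOC110256043, in SLA-1 and in LPCAT2, a lysophosphatidylcholine acyltransferase of membrane lipid remodelling. The ring of LPCAT2 was measured at 96.3, 698, 855 and 75.6 SRPBM, and its mRNA at 5.40, 23.7, 16.1 and 3.47 FPKM. Both were high at D2 and D4 and low at D0 and D8. The ratio of D2 to D0 was 7.25 (4.18 to 13.4) for the ring and 4.38 for the mRNA. PCSK5, a proprotein convertase, gave a ring at 57.8, 414, 160 and 92.4 SRPBM with its highest level at D2, 7.17 times that of D0 (3.52 to 16.5), and its mRNA was 2.26-fold higher. The SLA-1 ring had 68 junction reads at D2 and was listed at 0 in the other 3 libraries. SLA-1 belongs to the family of MHC class I genes, whose near-identical members can share reads, so that this ring is uncertain.

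Under the same minimum, the largest falls at D2 were those of CRIM1, RSRC1 and MIER1. The ring of CRIM1, a transmembrane protein with cysteine-rich repeats, spans 82.8 kb. It was measured with 49, 4, 16 and 9 reads, and its ratio of D2 to D0 was 0.0924 (0.0242 to 0.252). The mRNA was also lower, with FPKM of 25.4, 3.92, 5.16 and 10.6. The ring of RSRC1, an SR-related splicing protein, had 100, 0, 39 and 40 reads, at least 29.4-fold lower at D2 than at D0. Its mRNA was at 0.546 of the D0 level. The ring of MIER1, a transcriptional repressor that recruits histone deacetylases, was at 501, 189, 309 and 277 SRPBM and was 0.377 times as high at D2 as at D0 (0.232 to 0.595).

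At D4 compared with D2, 41 of 215 long-span circRNAs were higher (19.1%) and 36 lower (16.7%). Over all circRNAs, 16.2% were higher and 21.8% lower, and the median log2 ratio was -0.02 for long-span circRNAs and -0.16 for all. With counting intervals without 1 the long-span numbers were 33 and 28 (by the same rule, 13.1% and 17.8% of all circRNAs), and 11 of the higher rested on a 0. The split depended on the scaling. With median-ratio size factors, which shifted this comparison by 0.23 on the log2 scale, 54 were higher and 29 lower. Few mRNAs moved over the same step, as 4.24% of the 9191 reliably expressed mRNAs were at least 2-fold higher and 0.838% lower.

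The ring of SH3PXD2A, a scaffold of podosomes, showed the largest rise at this step among rings with at least 50 reads. It was measured at 83.4, 36.3, 321 and 151 SRPBM, and its ratio of D4 to D2 was 8.82 (3.56 to 28.3), while the mRNA was 2.13-fold higher. ATAD2B, a bromodomain ATPase, gave a ring at 38.5, 79.9, 249 and 25.2 SRPBM, 3.12 times as high at D4 as at D2 (1.58 to 6.72). TAF4B, a subunit of the general transcription factor TFIID, gave one at 109, 131, 380 and 185 SRPBM with a ratio of 2.91 (1.70 to 5.21). All 3 rings were highest at D4. Their mRNAs differed from D2 to D4 by factors of 1.16 for ATAD2B and 0.937 for TAF4B. By the same ranking, the largest falls were those of SLA-1, of PCSK5 (0.387, 0.235 to 0.622) and of RNF169, a ubiquitin-binding protein at DNA breaks. RNF169 was at 295, 276, 142 and 143 SRPBM, and its ratio of 0.516 (0.296 to 0.883) did not reach 2-fold.

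At D8 compared with D4, 18 of 194 long-span circRNAs were higher (9.28%) and 41 lower (21.1%), beside 14.9% and 18.8% of all circRNAs. The higher share was below that of all circRNAs and the lower share above it. The median log2 ratio was -0.11, beside 0.00 for all. With counting intervals without 1, 15 were higher and 34 lower (by the same rule, 12.8% and 14.3% of all circRNAs). Of the reliably expressed mRNAs, 4.43% were at least 2-fold higher and 10.1% lower.

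LPCAT2 had one of the largest falls among rings with at least 50 reads, to 0.0884 of its D4 level (0.0396 to 0.173), and its mRNA was at 0.217. The ring of ACER3, an alkaline ceramidase, was at 38.5, 283, 255 and 58.8 SRPBM and was at 0.230 of D4 (0.0874 to 0.516). It was high at D2 and D4 and low at D0 and D8, as was that of REV3L, the catalytic subunit of DNA polymerase zeta, with 32.1, 240, 338 and 84.0 SRPBM. The mRNA of REV3L took the same order, at 9.37, 30.1, 36.2 and 15.6 FPKM. DIAPH2, a formin that builds actin filaments, had 2 rings with a shared upstream end on the X chromosome that were listed at 0 at D8. One had 74, 50, 59 and 0 reads and the other 37, 29, 28 and 0, at least 13.9-fold and 6.60-fold lower at D8 than at D4. The DIAPH2 mRNA was nearly level over this step, with FPKM of 12.2 at D4 and 11.7 at D8.

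The 3 largest rises at D8 among rings with at least 50 reads were on MKLN1, ASXL2 and RPS6KC1. MKLN1 had a 54.7 kb ring at 199, 320, 190 and 529 SRPBM, 2.79 times as high at D8 as at D4 (1.79 to 4.41), while its mRNA was at 0.896. ASXL2, a Polycomb-associated chromatin protein, gave 398, 233, 267 and 496 SRPBM with a ratio of 1.86 (1.24 to 2.80), and RPS6KC1 gave 488, 283, 255 and 403 SRPBM with 1.58 (1.02 to 2.44). Neither ratio reached 2-fold. Both rings were lower at D2 and D4 than at D0 and D8.

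At D4 compared with D0, 45 of 215 long-span circRNAs were higher (20.9%) and 42 lower (19.5%). Over all circRNAs the split was 16.9% higher and 28.5% lower. The 463 circRNAs under 5 kb with enough reads had 65 higher and 155 lower (33.5%). The median log2 ratio was -0.04 for long-span circRNAs and -0.23 for all. With counting intervals without 1, 40 were higher and 35 lower (by the same rule, 15.0% and 24.3% of all circRNAs). Of the reliably expressed mRNAs, 10.4% were higher and 8.81% lower. The scaling moved all of these values together, by 0.17 on the log2 scale with the total of junction reads and by 0.31 with median-ratio size factors. Under the latter, 61 long-span circRNAs were higher and 31 lower, and their median was 0.27. Among rings with at least 50 reads, the largest rises were LOC110256043 (38.1-fold, from 22 to 907 reads), REV3L (10.5-fold, 4.26 to 33.7) and LPCAT2 (8.88-fold, 5.21 to 16.3). The largest falls by this ranking were CRIM1 (0.302, 0.160 to 0.540), RSRC1 (0.361, 0.243 to 0.527) and RNF169 (0.483, 0.282 to 0.807). The mRNA of RNF169 was 1.68-fold higher.

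At D8 compared with D0, 30 of 174 long-span circRNAs were higher (17.2%) and 36 lower (20.7%), beside 14.3% and 27.2% of all circRNAs. The median log2 ratio was -0.08, beside -0.23 for all. With counting intervals without 1, 23 were higher and 31 lower (by the same rule, 11.8% and 22.3% of all circRNAs). Of the reliably expressed mRNAs, 3.6% were higher and 3.68% lower. Apart from LOC110256043 (46.7-fold, 30.6 to 75.0), the largest rises among rings with at least 50 reads were on LOC106506781 and TMEM135. LOC106506781 is an lncRNA gene without an assigned name, and its ring spans 88.1 kb on chromosome 18. It was measured at 128, 465, 623 and 538 SRPBM and was 4.19 times as high at D8 as at D0 (2.50 to 7.31). TMEM135, a membrane protein of peroxisomes and mitochondria, gave a ring at 116, 233, 392 and 344 SRPBM with a ratio of 2.98 (1.68 to 5.51), and its mRNA was 2.07-fold higher. Besides DIAPH2, the largest falls by this ranking were those of CRIM1 (0.240, 0.104 to 0.495) and RNF169 (0.484, 0.260 to 0.860). The 3 comparisons with D0 share that library.

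**Figure D4:**
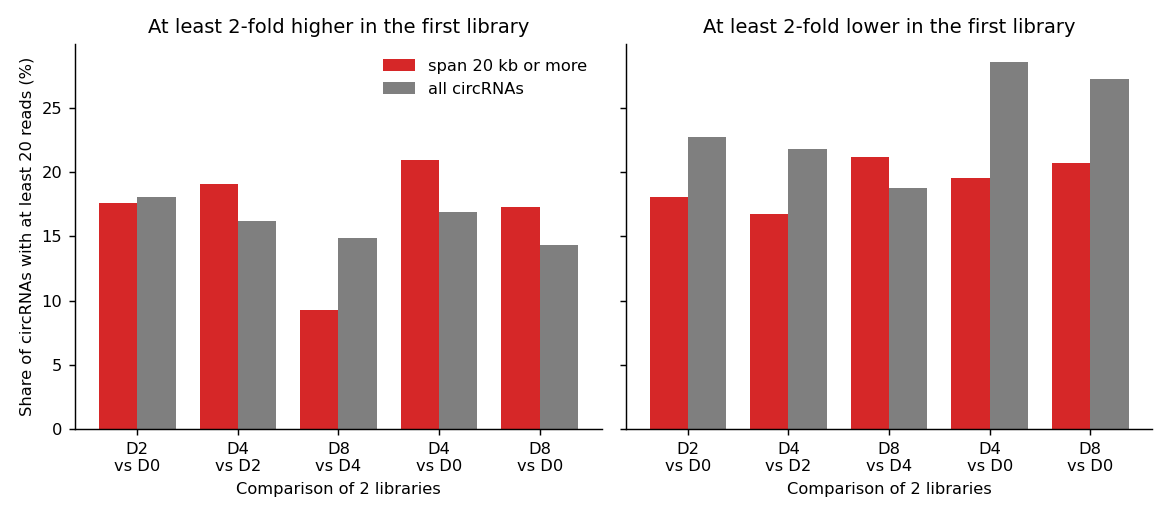
Share of circRNAs with at least 20 junction reads in the 2 libraries (y axis, percent) whose SRPBM was at least 2-fold higher (left) or lower (right) in the first library of each of the 5 comparisons, for long-span circRNAs (red) and all circRNAs (grey). The bars for lower levels at D4 vs D0 stand at 19.5% for long-span and 28.5% for all circRNAs.

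The level of a ring was set beside that of its host mRNA for hosts with FPKM of at least 1 in at least 3 libraries. From D0 to D2, 114 of 192 long-span circRNAs (59.4%) changed in the direction of the host, beside 55.4% of all circRNAs. The shares were 52.2% from D2 to D4 (52.8% of all), 59.8% from D4 to D8 (50.1%), 65.2% from D0 to D4 (59.5%) and 60.6% from D0 to D8 (61.3%). The 95% Wilson intervals of long-span and of all circRNAs, given here in that order, overlapped in every comparison. From D0 to D2 they were 52.3 to 66.1 and 52.3 to 58.4, and from D2 to D4 45.4 to 58.8 and 49.7 to 55.9. From D4 to D8 they were 52.7 to 66.5 and 46.8 to 53.3. From D0 to D4 they were 58.5 to 71.4 and 56.6 to 62.4, and from D0 to D8 53.1 to 67.6 and 58.1 to 64.4. These intervals treat rings of 1 host as independent, and all circRNAs include the long-span ones.

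From D0 to D4, ring and mRNA were both at least 2-fold higher for 15 circRNAs on 11 hosts, among them FGFR2, LOC106506781, LPCAT2, PCSK5, REV3L, SH3PXD2A and TMEM135, and both at least 2-fold lower for 13 circRNAs on 10 hosts, among them CRIM1, MSRB3, RPS6KC1 and RSRC1. These were 7.25% and 6.28% of the 207 compared, beside 3.16% and 5.49% of 1075 among all circRNAs. With the same limit of 2-fold for both, the opposite combination was found once. It was on ENAH, with a higher ring and a lower mRNA (0.483%, beside 0.837% of all circRNAs). A ring at least 2-fold lower on a host with an mRNA at least 2-fold higher was not found (0.465% of all circRNAs). For 52 of 207 circRNAs the ring differed at least 2-fold while the host mRNA stayed within 2-fold (25.1%, beside 33.4% of all circRNAs). For 16 the mRNA was at least 2-fold lower and the ring within 2-fold, and for 3 the mRNA was at least 2-fold higher and the ring within 2-fold. Over all circRNAs the latter combinations made up 5.21% and 3.07%, beside 7.73% and 1.45% here. From D0 to D2, 5 rings were at least 2-fold higher on hosts with an mRNA at least 2-fold lower, among them ENAH and MACF1. These were 2.60% of 192, beside 1.53% of all circRNAs. No ring was at least 2-fold lower on a host with an mRNA at least 2-fold higher, beside 0.192% of all circRNAs. From D2 to D4, ring and mRNA were both at least 2-fold higher only for BMPER and SH3PXD2A (0.957%, beside 0.497% of all circRNAs). Over the same step, 68 of 209 rings differed at least 2-fold on hosts that did not (32.5%, beside 34.4% of all circRNAs).

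**Figure D5:**
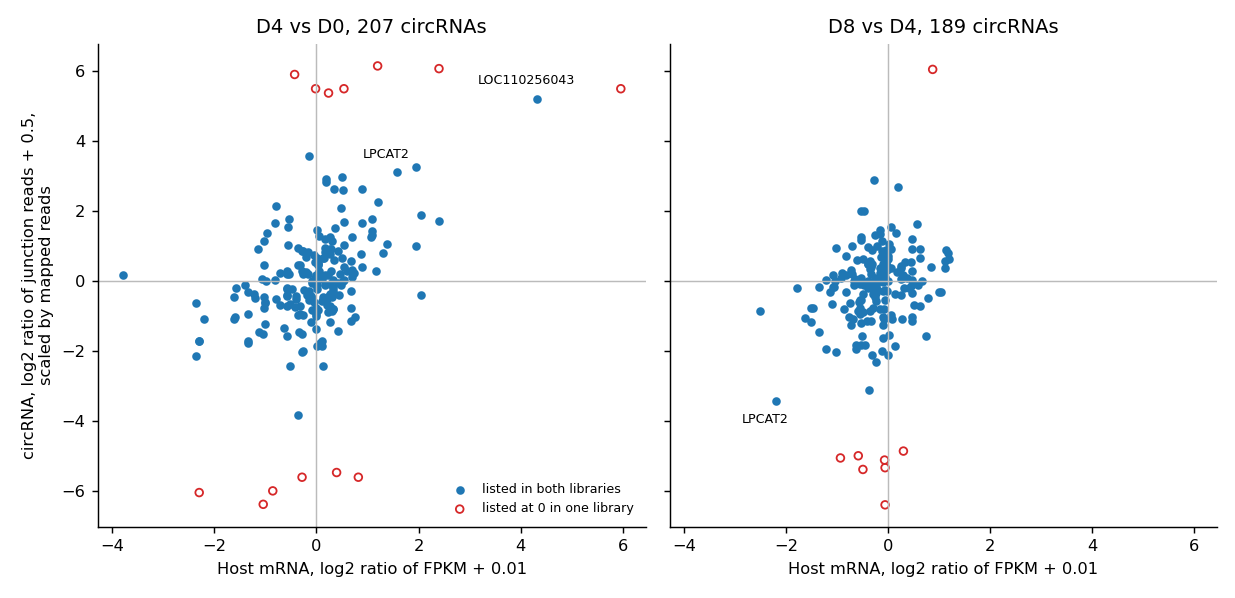
Log2 ratio of each long-span circRNA (y axis, junction reads + 0.5 scaled by mapped reads) against that of its host mRNA (x axis, FPKM + 0.01) for D4 vs D0 (207 circRNAs) and D8 vs D4 (189 circRNAs). Open red circles were listed at 0 in 1 library, where the plotted ratio depends on the added 0.5, and LOC110256043 at D4 vs D0 and LPCAT2 in both panels lie far from the origin with ring and mRNA on the same side.

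Rings of the same host were compared with each other where a host had at least 2 with enough reads. Some rings passed 2-fold and others did not, or they passed it in opposite directions, on 14 of 27 such hosts for D2 vs D0, 21 of 32 for D4 vs D2, 13 of 30 for D8 vs D4, 14 of 30 for D4 vs D0 and 10 of 24 for D8 vs D0. The same counts over all circRNAs are not given here, so these do not set long-span circRNAs apart. Rings near 2-fold can also fall on either side of it by counting error. Opposite moves of 2-fold each were seen on TLK1 and KANSL1L from D2 to D4, on TBC1D22A from D4 to D8 and on ERC1 from D0 to D4, and on none from D0 to D2 or D0 to D8. TBC1D22A had rings of 72.4 and 54.2 kb that start at the same upstream end, with 12, 11, 24 and 8 reads for the first and 9, 16, 12 and 20 for the second. KANSL1L likewise gave rings of 56.5 and 26.8 kb from 1 upstream end, with 20, 8, 21 and 3 reads and with 2, 16, 8 and 8 reads. On KANSL1L, TBC1D22A and ERC1 the counting interval of at least 1 ring of the pair included 1. For the falling ring of TLK1 the upper bound was 0.994, or -0.009 on the log2 scale. Scaling by the total of junction reads or by median-ratio size factors shifts D4 vs D2 upwards by 0.08 or 0.23. Its interval then also includes 1, so that this move depended on the scaling. The ratios of D4 to D2 on KANSL1L were 2.14 (0.913 to 5.60) and 0.409 (0.151 to 1.01). On TBC1D22A the ratios of D8 to D4 were 0.472 (0.183 to 1.09) and 2.36 (1.10 to 5.29). ERC1 had ratios of D4 to D0 of 2.51 (1.01 to 7.07) and 0.435 (0.163 to 1.06). These 4 hosts were named after their values were seen.

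Of 50 chromatin regulators, 25 hosted 77 long-span circRNAs, and 47 hosted a circRNA of some span. From D0 to D4, 2 of the 8 with enough reads were higher and 1 lower (16.9% and 28.5% of all circRNAs), with a median log2 ratio of -0.68, beside -0.23 for all circRNAs. Several of the 8 were rings of SMARCC1 alone (log2 ratios of -0.80, -0.80 and -0.29). Rings of 1 host are not independent members of the list. In the other 4 comparisons none to 2 of 5 to 8 were higher and 1 or 2 lower. The ring of NSD2, a histone H3 lysine 36 methyltransferase, was at 199, 240, 77.2 and 75.6 SRPBM. It was high at D0 and D2 and low at D4 and D8, with a ratio of D4 to D2 of 0.322 (0.155 to 0.628). The most abundant ring of SMARCC1 was level at 218, 196, 178 and 202 SRPBM.

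Actin, microtubule and adhesion genes hosted 63 long-span circRNAs on 20 of 43 listed genes. Of the 5 with enough reads at D0 and D4, 3 were higher at D4 and none lower (16.9% and 28.5% of all circRNAs), with a median log2 ratio of 1.65. From D4 to D8, 4 of 6 were lower (18.8% of all circRNAs) and none higher, and 2 of these were the DIAPH2 rings at 0. With values at 0 set to 3 reads the median of that step was -2.32. At D2 compared with D0, 2 of 5 were higher and none lower, at D4 compared with D2, 1 of 5 and none, and at D8 compared with D0, none and both of 2. ARHGAP10, a GTPase-activating protein, gave a ring with 5, 12, 26 and 13 reads, 4.81 times as high at D4 as at D0 (1.82 to 16.0), while its mRNA was at 0.579.

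Matrix genes hosted 30 long-span circRNAs on 12 of 21 genes, and at most 3 had enough reads in a comparison. LTBP1, which holds latent TGF-beta in the matrix, gave a 63.3 kb ring with 0, 27, 32 and 22 reads. It was at least 10.2-fold higher at D2 than at D0, although the LTBP1 mRNA was already at FPKM 100 at D0 and 114 at D2. FNDC3B, a fibronectin type III domain protein, gave a 132 kb ring with 3, 8, 13 and 13 reads. The ring of ADAM12, a metalloprotease, had 19, 9, 20 and 8 reads.

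Adipocyte and insulin or growth factor genes hosted 32 long-span circRNAs on 15 of 57 genes, so that most of these genes had none. Of the 3 with enough reads at D0 and D4, 1 was higher and none lower (16.9% and 28.5% of all circRNAs). The ring of FGFR2, a receptor for fibroblast growth factors, was at 116, 225, 243 and 210 SRPBM, 2.11 times as high at D4 as at D0 (1.18 to 3.90). Its mRNA ratio from D4 to D8 was 0.292 while the ring was at 0.863 (0.503 to 1.45). MED13L, a Mediator subunit, gave a 142 kb ring with 11, 7, 19 and 27 reads, 3.21 times as high at D8 as at D0 (1.54 to 7.18), with an mRNA ratio of 0.946.

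Of 34 genes well known for abundant circRNAs in other mammals, 17 hosted 49 long-span circRNAs with 1243 junction reads, 3.37% of the long-span reads. From D2 to D4, 5 of 10 were higher and none lower, beside 16.2% and 21.8% of all circRNAs. The numbers higher and lower were 0 and 1 of 9 for D2 vs D0 (18.1% and 22.7% of all circRNAs) and 0 and 2 of 11 for D8 vs D4 (14.9% and 18.8%). They were 3 and 3 of 10 for D4 vs D0 (16.9% and 28.5%) and 1 and 4 of 8 for D8 vs D0 (14.3% and 27.2%). Of the rings compared, 2 were listed at 0 in one library for D4 vs D2, 3 for D4 vs D0 and 1 for D8 vs D4. The ring of UBAP2, a ubiquitin-associated protein, was at 475, 254, 511 and 454 SRPBM and was lowest at D2 (ratio of D2 to D0 0.536, 0.348 to 0.811). PICALM, a clathrin assembly protein, hosted several of the rings compared, and rings of 1 host are not independent. Of its long-span rings, 2 from 1 upstream end are given here. One had 32, 18, 46 and 27 reads, and the other had 17, 29, 38 and 29.

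Factors that act in back-splicing or in the turnover of circRNAs were examined by their own mRNA. Of 27 such genes, 26 were reliably expressed. At D2, 2 of them were at least 2-fold lower than at D0, DDX39A (60.7 and 23.8 FPKM), a helicase of RNA export, and MBNL1 (52.7 and 22.9), a splicing factor. Over all reliably expressed mRNAs 10.1% were lower and 6.67% higher. QKI, an RNA-binding protein that promotes back-splicing, was at 25.6, 13.4, 14.1 and 19.4 FPKM. The double-stranded RNA editor ADAR was at 2.82, 4.22, 6.08 and 3.89 FPKM and was the one factor at least 2-fold higher at D4 than at D0. At D8 PRPF8, a core spliceosome protein, was lower than at D4 (14.7 and 6.15 FPKM). Whether any of these levels bears on the rings was not tested. The same genes hosted 10 long-span circRNAs on 4 of them.

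The rings of longest span with at least 20 reads were all of low abundance. A DIAPH2 ring of 167770 bases had 0, 6, 3 and 12 reads, one of CDK14, a cyclin-dependent kinase, of 149897 bases had 7, 0, 7 and 6, and that of MED13L of 141780 bases is given above. Just inside the limit of span lay rings of MDM2, the ubiquitin ligase of p53 (20032 bases, 9, 0, 11 and 0 reads), and of KLHL24 (20044 bases, 2, 10, 5 and 4 reads). Just outside lay those of KCTD3 (19997 bases, 14, 8, 9 and 0 reads) and of PTPN11 (19968 bases, 11, 4, 6 and 6 reads). A limit of 50 kb would leave 417 circRNAs.

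A number of rings were listed at 0 in a library despite many reads in the others. Of 97 long-span circRNAs with at least 60 reads over the 4 libraries, 12 (12.4%) were listed at 0 in at least 1 library, beside 61 of 553 among all circRNAs. Besides LTBP1 and RSRC1, these included rings of PPP1R12A, a myosin phosphatase subunit (37, 0, 31 and 20 reads), NECTIN3, an adhesion molecule (38, 26, 0 and 23), and TMEM135 (0, 16, 36 and 9). They were spread over all 4 libraries. These 3 were named after their values were seen. In 5 cases, 2 long-span circRNAs had ends within 20 bases of each other, as for ELF2, where a second entry shifted by 3 bases had 27, 0, 18 and 7 reads. Whether such pairs are separate rings or 1 ring with 2 alignments was not tested.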

How the data were processed

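RNA of 3 piglets was pooled for each of 4 libraries (D0, D2, D4 and D8), from which rRNA-depleted, strand-specific libraries were sequenced. According to the study's methods, the authors aligned reads to Sscrofa11.1 with HISAT2 (version 2.0.5 in the submitters' processing notes) for mRNAs and lncRNAs, for which they deposited FPKM. They mapped reads with BWA-MEM, called circRNAs with CIRI from at least 2 junction reads, and the SRPBM they deposited stands in the same column as FPKM, told apart by biotype. No replicate exists, so that no test between stages was made.

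Junction reads were recovered from the smallest step of SRPBM in each library. Hosts were assigned by position on the same strand, and 947 of 955 hosts matched a RefSeq gene by symbol, start and end. CircRNAs with at least 20 junction reads in 2 libraries and an SRPBM ratio of at least 2 were counted, and medians used 0.5 added reads. Host ratios used log2(FPKM + 0.01). Ratios have exact 95% binomial intervals on junction reads and shares have Wilson intervals. The analysis used Python 3.11.15, numpy 2.4.6, pandas 2.3.3 and scipy 1.17.1, and the scripts were checked on simulated data.

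Named circRNAs were the 12 with the most reads, the 3 largest rises and falls per comparison with at least 50 reads, the 3 of longest span, those on the 5 hosts with most members or reads, 2 on each side of the span limit, and up to 3 from each of 6 gene lists, except the processing factors, whose mRNAs were examined. The members and lists were chosen with earlier results of these data known. Alternatives were other scalings, read minimums, pseudocounts and the study's own rule. Some named members and factors are not reported here.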

Additional observations from a re-analysis of the deposited data

Results flagged for a closer look

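The 93 circRNAs that spanned at least 20000 bases but had no same-strand host around both ends were left out of the long-span circRNAs. They were counted only among all circRNAs. They held 261, 267, 398 and 201 junction reads at D0, D2, D4 and D8, which is 0.491%, 0.607%, 0.779% and 0.536% of all junction reads.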

How the results depend on the processing

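Of 139 values recomputed under alternatives, 94 stayed within the limits set for the same result and 45 moved. The sign of a median log2 ratio near 0 depended on the scaling. Scaled by the total of junction reads, it went from -0.04 to 0.13 for D4 vs D0 and from -0.02 to 0.06 for D4 vs D2. For D8 vs D0 it went from -0.08 to 0.03. Counts scaled with the minimum of junction reads. With a minimum of 10, the numbers higher and lower were 121 and 138 (D2 vs D0), 143 and 114 (D4 vs D2), 86 and 138 (D8 vs D4), 155 and 139 (D4 vs D0), and 90 and 141 (D8 vs D0). With a minimum of 50 they were 9 and 3, 9 and 2, 1 and 11, 12 and 3, and 5 and 3, respectively, and with no minimum 451 and 461, 592 and 429, 516 and 585, 617 and 448, and 558 and 454. Fewer circRNAs are compared under a higher minimum. With the study's rule and the MARS formula of DEGseq, the numbers higher and lower against D0 were 70 and 41 at D2, 78 and 46 at D4 and 48 and 36 at D8, more higher than lower, whereas the 2-fold rule gave 35 and 36, 45 and 42, and 30 and 36. Median-ratio size factors moved the median log2 ratio to 0.21 (D4 vs D2), -0.28 (D8 vs D4) and 0.27 (D4 vs D0). With a minimum of 50 reads, the share that changed with the host was 63.5% of 52 (D2 vs D0) and 57.1% of 56 (D4 vs D2). It was 71.2% of 52 (D8 vs D4), 75.4% of 57 (D4 vs D0) and 79.1% of 43 (D8 vs D0). Shares over all circRNAs at this minimum, or under the study's rule, are not given here, so these values do not set long-span circRNAs apart. Counting only circRNAs listed in all 4 libraries, long-span circRNAs held 16.0% of the reads at D0 and 18.5% at D2, and without LOC110256043 18.8% at D2, 20.9% at D4 and 19.5% at D8. A limit of 50 kb left 417 circRNAs. The causes were not tested. The further choices of leaving out circRNAs at 0 and leaving out LOC110256043 were made after seeing the data. Exon structure was not analysed here, since no exon annotation was used. No paired analysis was possible because each stage is 1 library, which also leaves no replicate to leave out. At this depth, most long-span circRNAs had too few reads to be compared.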
